A study of Mus musculus with 6 samples.

Results

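Genes of homologous recombination, of the Fanconi anaemia pathway and of the DNA damage checkpoint were followed in BV2, a mouse microglial line made immortal by viral oncogenes, after lipopolysaccharide (LPS) or vehicle. The 41 genes were chosen by pathway membership and matched by symbol to the Ensembl identifiers of a table of 55401 genes. They were proposed with the LPS against Vehicle values of these same libraries known, so their fold changes and calls below are a description and support nothing by themselves. The study sequenced poly(A)-selected RNA of 3 libraries of vehicle-treated BV2 cells and 3 libraries of LPS-treated BV2 cells, to look for regulators of inflammatory activation in microglia. LPS is a cell wall component of Gram-negative bacteria. The labels give no dose and no time of treatment. BV2 cells are a dividing line, and the labels describe no separate cultures behind the 3 libraries of a group, so p-values and standard errors measure only the spread between these libraries.

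Homologous recombination repairs a broken chromosome by copying the intact sister. Broken ends are trimmed to single strands, mediator proteins such as BRCA1, PALB2 and BRCA2 prepare them for pairing with the sister, and helicases and nucleases later separate the joined molecules. Fanconi proteins unhook crosslinked strands at stalled forks, and the kinases ATM, ATR, CHK1 and CHK2 hold the cell cycle while repair goes on. Recombination needs a sister chromatid, and many of these genes are known to be transcribed mostly around S and G2 phase, through E2F factors among others.

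Promoter sequence was therefore looked at for letters known to bind E2F factors. RefSeq windows of 300 bases (250 before the start and 50 after it, build GRCm38.p6) were given for 32 of the 41 genes. Searched on both strands were the E2F words TTTGGCGC, TTTCCCGC, TTTGCCGC and TTTCGCGC, the CHR words TTTGAA and TTCGAA (CHR is an element of G2 and mitosis genes), the word CCAAT and the NF-kB word GGANTTTCC. None of these words contains another. At least 1 E2F word lay in the windows of 8 of the 32 genes (25.0%), namely Bard1, Brca2, Chek2, Clspn, Fancg, Rad51c, Rmi1 and Topbp1, against 2.60% of the 27025 genes of the table with a window. The 5 stretches printed here are those of the 5 genes whose word and its flanks lie wholly before the start. They show that genes which fell with LPS (Bard1, Topbp1) and genes without a call (Fancg, Chek2, Brca2) carry the same kind of word. Capitals mark the E2F word on the strand of the gene.
Bard1, chr1:71103154-71103201, minus strand: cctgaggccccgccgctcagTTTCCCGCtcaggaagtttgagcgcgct
Topbp1, chr9:103305178-103305225, plus strand: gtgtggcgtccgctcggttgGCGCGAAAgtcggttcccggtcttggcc
Fancg, chr4:43010326-43010373, minus strand: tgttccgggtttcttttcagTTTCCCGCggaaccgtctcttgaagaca
Chek2, chr5:110839811-110839858, plus strand: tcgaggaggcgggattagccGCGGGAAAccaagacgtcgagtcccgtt
Brca2, chr5:150522433-150522480, plus strand: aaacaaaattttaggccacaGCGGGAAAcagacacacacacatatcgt

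Some genes have more than 1 window. Of the 17 genes called lower with LPS that have a window 4 held an E2F word, and of the 14 such genes without a call 4 did. CCAAT was found for 62.5% of the 32 genes against 41.1% of all genes with a window. Neither share is particular to the 41 genes, as other lists named below show. CCAAT was found for 63.6% of S phase, 85.0% of G2 and mitosis, 50.0% of end joining and 69.2% of p53 target genes with a window. E2F words were found for 45.5%, 5.0%, 12.5% and 0.0% of them, in the same order. The CHR words were found for 15.6% against 21.7%, and the NF-kB word for 0 of 32 against 1.45%. Ankle1 had the largest fold change of the 41 genes and was picked for printing for that reason. The 250 bases before its start hold no E2F word and 1 CHR word, in capitals, close to the start. A match of letters is a description and shows no binding, and a window without a match says only that these letters are not in it.
Ankle1, chr8:71405762-71406011, plus strand: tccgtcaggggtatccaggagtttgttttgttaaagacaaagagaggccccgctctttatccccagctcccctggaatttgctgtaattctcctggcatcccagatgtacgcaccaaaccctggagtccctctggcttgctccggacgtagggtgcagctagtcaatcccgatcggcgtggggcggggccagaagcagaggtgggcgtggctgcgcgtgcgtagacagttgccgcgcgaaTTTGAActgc

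Libraries totalled 45969690 to 59023474 estimated counts. The low values of the table lay 3.70 to 3.80 counts apart, so an estimated count is not a number of reads. On principal components of log2 CPM (estimated counts on a common, TMM-scaled total) the first, with 43.7% of the variance, separated the groups, and the second, with 19.3%, placed LPS 1 at 62.7 and LPS 3 at -66.1. Macrophage genes such as Cd68 and Csf1r were present in all 6 libraries, while Aif1 and Cx3cr1 stood at or under 4.58 CPM. Summed markers of astrocytes, endothelium, fibroblasts and T cells stayed at or under 3.59 CPM, with Cd3e and Cd3g at 0. The 4 neuron markers summed to 0.0801 CPM in LPS 1 against 3.34 to 8.90 CPM in the other 5 libraries, and the 4 oligodendrocyte markers to 1.12 CPM against 4.71 to 6.51 CPM. The part of these differences in the results below was not tested, and the counts of called genes are therefore also given without LPS 1 and without LPS 3.

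With LPS, 21 of the 41 genes were called lower (51.2%), 1 was called higher and 19 were not called. A call is a Benjamini-Hochberg adjusted p under 0.05 in edgeR's quasi-likelihood test over all 16371 tested genes, of which 10.9% were called lower, 12.7% higher and 23.6% either way. The members were proposed from this contrast, so nothing is read from that difference. The median log2 fold change of the 41 genes was -0.68, against -0.02 over all tested genes. All 3 LPS libraries lay below all 3 Vehicle libraries for 25 of the 41 genes and above them for 2, where 20.0% and 20.8% of all tested genes did so. Of the 41 log2 fold changes 34 were negative and 7 positive. The called falls ranged from 1.47-fold (Rmi1) to 4.15-fold (Ankle1). Without LPS 1 the calls were 18 lower and 0 higher, and without LPS 3 they were 24 lower and 2 higher. By role, leaving out LPS 1 took the genes called lower from 2 to 0 of 3 in the BLM group and from 4 to 3 of 8 in the Fanconi core, and Mus81 lost its call. Leaving out LPS 3 took them from 4 to 5 of 5 among the BRCA mediators, from 3 to 4 of 6 in the checkpoint and from 1 to 2 of 5 in end sensing, and Fancc gained a call. The other role counts of called genes stayed as with all 6 libraries. All 41 genes passed the filter on low values, with a lowest estimated count of 165 in any library. In bulk RNA, fewer cells in S or G2 phase and less RNA of a gene per cell cannot be told apart.

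**Figure D1:**
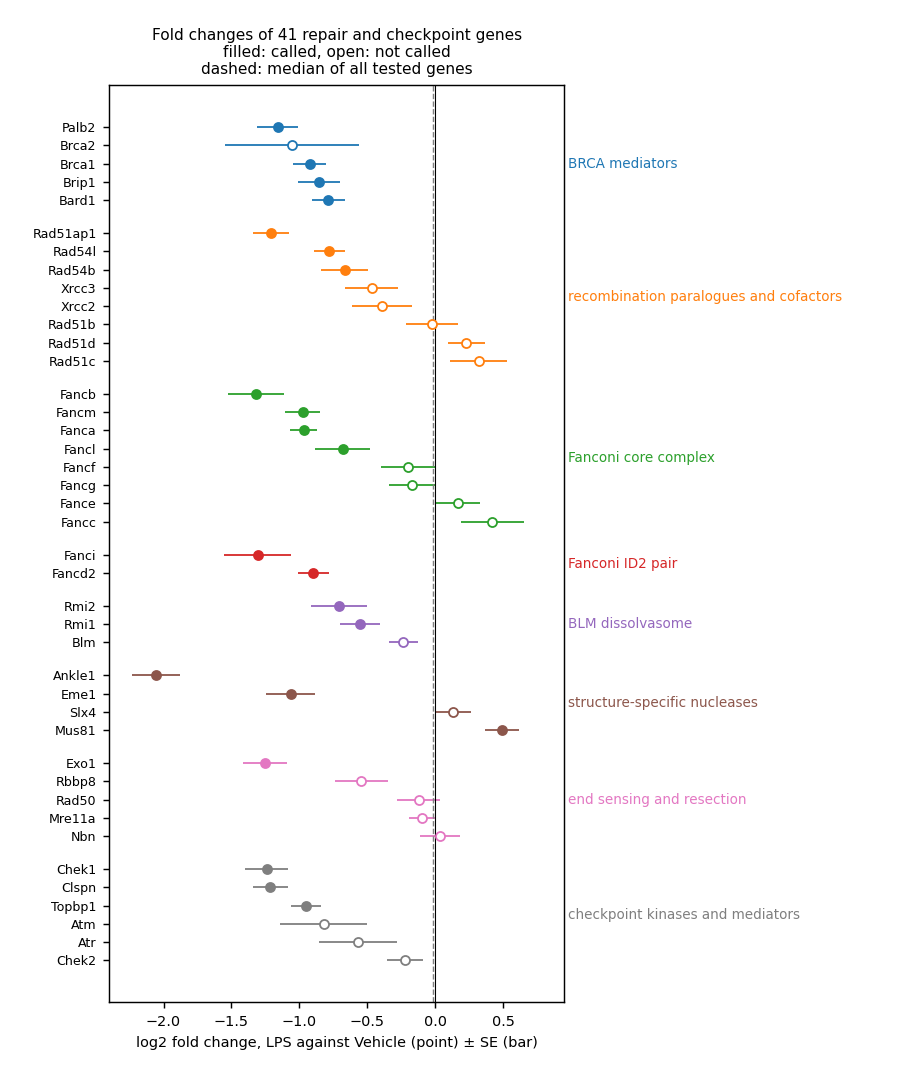
Log2 fold change of LPS against Vehicle (x axis, point) with its standard error (bar) for each of the 41 genes (y axis), grouped by role. Filled points are called genes and open points are not called. The dashed line is the median of all tested genes at -0.02, and Ankle1 lies farthest to the left at -2.05 and Mus81 farthest to the right at 0.49.

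Of the 5 mediators that act at a break 4 were called lower, and the fifth, Brca2, varied widely among the LPS libraries. For this count and those of the other roles below, the share called lower over all tested genes was 10.9%. The members were proposed from this contrast, so no group result is read from these counts. The median log2 fold change of the 5 was -0.92. Brca1 (ENSMUSG00000017146), a subunit of a ubiquitin ligase that promotes recombination, stood at 57.9, 68.6 and 66.7 CPM in Vehicle 1 to 3 and at 36.1, 29.6 and 35.9 CPM in LPS 1 to 3. The groups did not overlap, and the log2 fold change was -0.92 ± 0.12 (SE, 3 libraries per group here and below). Bard1 (ENSMUSG00000026196), its partner in the ligase, had a log2 fold change of -0.79 ± 0.12. Palb2 (ENSMUSG00000044702) bridges BRCA1 and BRCA2. It stood at 16.4, 15.5 and 16.9 CPM in Vehicle and at 6.43, 8.11 and 7.24 CPM in LPS. Every LPS value was at or under 8.11 CPM, and Palb2 fell by 1.16 ± 0.15 on the log2 scale. Brip1 (ENSMUSG00000034329), a helicase that binds BRCA1, stood at 31.0, 39.2 and 38.0 CPM in Vehicle and at 19.6, 16.9 and 23.3 CPM in LPS. Its groups did not overlap, and the log2 fold change was -0.86 ± 0.16. Brca2 (ENSMUSG00000041147), which binds single-stranded DNA at breaks, stood at 25.3, 28.0 and 31.9 CPM in Vehicle and at 4.51, 13.3 and 23.2 CPM in LPS. The LPS values were all below the Vehicle values but lay 5.16-fold apart, and Brca2 was not called (-1.05 ± 0.49). Without LPS 3 it was called lower at -1.66 ± 0.40, and without LPS 1 its log2 fold change was -0.65 ± 0.24 with no call.

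Among the recombination paralogues and cofactors the calls differed by kind, but a difference between the kinds was not tested. The paralogues Rad51b, Rad51c, Rad51d, Xrcc2 and Xrcc3, whose proteins form small complexes on DNA, had no call in 5 of 5. The 3 cofactor genes of this role were all called lower. The log2 fold changes of Xrcc3 (-0.47 ± 0.20) and Rad54b (-0.67 ± 0.17) lay close together on either side of the cut for a call. Sfr1, a cofactor of strand exchange outside this role, was called higher (0.53 ± 0.11). Rad51ap1 (ENSMUSG00000030346), a cofactor of strand pairing, stood at 38.6, 46.2 and 42.8 CPM in Vehicle and at 20.2, 16.3 and 18.6 CPM in LPS. The groups were far apart, and Rad51ap1 fell by 1.21 ± 0.13 on the log2 scale. Rad54l (ENSMUSG00000028702) and Rad54b (ENSMUSG00000078773) are DNA translocases of the pathway. Rad54l stood at 59.5, 50.0 and 48.9 CPM in Vehicle and at 30.3, 30.4 and 31.7 CPM in LPS, the latter within 1.05-fold of each other. Its log2 fold change was -0.78 ± 0.11, and 15.4% of its annotated exon bases are shared with Lrrc41 on the opposite strand. Lrrc41 stood at 83.1 CPM in Vehicle and 112.5 CPM in LPS. The part of Lrrc41 reads in the Rad54l values was not tested. Rad54b stood at 13.5, 14.8 and 16.7 CPM in Vehicle and at 10.9, 9.42 and 7.92 CPM in LPS. Its groups did not overlap and the log2 fold change was -0.67 ± 0.17. Leaving out Vehicle 2, Vehicle 3 or LPS 2 removed the call, and 35.8% of its exon bases are shared with Fsbp on the same strand, so its reads may be divided between the genes. Among the paralogues, Rad51c had a log2 fold change of 0.32 ± 0.21 and Rad51d of 0.23 ± 0.14, and all 3 LPS values of Rad51d were above its Vehicle values. Rad51b had -0.02 ± 0.19 and Xrcc2 -0.39 ± 0.22. Xrcc3 had -0.47 ± 0.20 and was called lower only without Vehicle 3, where the value was -0.66 ± 0.14.

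The Fanconi core complex is the ubiquitin ligase of the pathway. Of the 8 core genes among the members, 4 were called lower (median log2 fold change -0.44). Fanca (ENSMUSG00000032815) stood at 61.2, 59.4 and 55.2 CPM in Vehicle and at 28.2, 30.7 and 31.0 CPM in LPS. No LPS value came near the Vehicle values, and Fanca had a log2 fold change of -0.97 ± 0.10. The gene shares 10.5% of its exon bases with Zfp276 on the opposite strand. Fancb (ENSMUSG00000047757) is part of the catalytic module. It stood at 13.8, 16.5 and 16.0 CPM in Vehicle and at 4.83, 8.05 and 5.56 CPM in LPS, and fell by 1.32 ± 0.21 on the log2 scale, without overlap. Fancm (ENSMUSG00000055884), a translocase that anchors the complex to DNA, stood at 21.4, 22.9 and 20.9 CPM in Vehicle and at 11.8, 10.4 and 11.0 CPM in LPS. The LPS values were within 1.13-fold of each other, and the log2 fold change was -0.98 ± 0.13. Fancl (ENSMUSG00000004018), the ligase subunit itself, had a log2 fold change of -0.68 ± 0.20. That call was lost with the older form of edgeR's test, and without Vehicle 1, Vehicle 2, Vehicle 3, LPS 1 or LPS 2. Fancl shares 13.7% of its exon bases with Vrk2 on the opposite strand. The other core genes, Fancg (-0.17 ± 0.17), Fancf (-0.20 ± 0.20), Fance (0.17 ± 0.17) and Fancc (0.42 ± 0.23), were not called. Fancc was called higher without LPS 3, at 0.64 ± 0.14. Opposite-strand genes share 253 of the 1691 exon bases of Fancf (Gas2) and 1373 of the 8359 of Fancc (Gm16133). Fancc also shares 185 exon bases with 2010111I01Rik on the opposite strand, which stood at 66.5 CPM in Vehicle and 36.1 CPM in LPS.

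FANCD2 and FANCI form the clamp that the core complex ubiquitinates, and both genes were called lower. Fancd2 (ENSMUSG00000034023) stood at 49.1, 45.2 and 41.9 CPM in Vehicle and at 25.5, 22.9 and 24.8 CPM in LPS. The groups did not overlap, and Fancd2 had a log2 fold change of -0.90 ± 0.11. Fanci (ENSMUSG00000039187) stood at 25.0, 24.9 and 21.0 CPM in Vehicle and at 13.6, 8.90 and 6.18 CPM in LPS. Its LPS libraries were 2.198-fold apart with LPS 1 the highest, the reverse of Brca2, and the log2 fold change was -1.31 ± 0.25. The fall was -1.65 ± 0.21 without LPS 1 and -1.08 ± 0.20 without LPS 3, called each time. Fanci shares 16.0% of its exon bases with Polg on the opposite strand. Polg stood at 51.0 CPM in Vehicle and 39.4 CPM in LPS. The part of Polg reads in the Fanci values was not tested.

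BLM is a helicase that, with topoisomerase and the RMI proteins, takes joined chromosomes apart. Blm (ENSMUSG00000030528) stood at 49.5, 55.5 and 52.98 CPM in Vehicle and at 43.5, 41.8 and 48.8 CPM in LPS. The groups did not overlap, yet the log2 fold change was -0.24 ± 0.11 and Blm was not called. Rmi1 (ENSMUSG00000035367) stood at 36.6, 43.2 and 31.2 CPM in Vehicle and at 23.7, 24.7 and 27.2 CPM in LPS. It was called lower at -0.55 ± 0.14, and leaving out Vehicle 1, Vehicle 2, LPS 1 or LPS 2 ended the call. Rmi1 shares 5.02% of its exon bases with Hnrnpk on the opposite strand. Hnrnpk stood much higher, at 454.2 CPM in Vehicle and 351.1 CPM in LPS. The part of Hnrnpk reads in the Rmi1 values was not tested. Rmi2 (ENSMUSG00000037991) stood at 8.80, 7.25 and 6.78 CPM in Vehicle and at 3.84, 4.98 and 5.23 CPM in LPS. It was called lower at -0.71 ± 0.21. That call ended when any library other than LPS 3 was left out, and with a block for the replicate number (-0.71 ± 0.23).

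The nucleases that cut branched DNA went different ways, with 2 called lower, 1 called higher and 1 not called. Ankle1 (ENSMUSG00000046295), a nuclease with a LEM domain, stood at 15.02, 16.5 and 14.1 CPM in Vehicle and at 3.30, 3.41 and 4.29 CPM in LPS. The highest LPS value was well under the lowest Vehicle value, and Ankle1 fell by 2.05 ± 0.18 on the log2 scale. MUS81 is the catalytic subunit and EME1 the partner of a nuclease that acts on stalled forks and joint molecules. Eme1 (ENSMUSG00000039055) stood at 17.3, 22.5 and 25.2 CPM in Vehicle and at 11.3, 9.44 and 10.2 CPM in LPS. Eme1 fell by 1.06 ± 0.18 on the log2 scale, with no overlap. On the opposite strand, Lrrc59 shares 8.0% and Mrpl27 2.72% of the exon bases of Eme1. Lrrc59 stood at 388.27 CPM in Vehicle and 372.35 CPM in LPS, and Mrpl27 at 31.52 and 37.17 CPM. The part of their reads in the Eme1 values was not tested. Mus81 (ENSMUSG00000024906) stood at 11.5, 11.8 and 12.4 CPM in Vehicle and at 16.5, 17.1 and 16.6 CPM in LPS. It was called higher, at 0.49 ± 0.13, with every LPS value above every Vehicle value. The Mus81 call was lost with total counts as the only scaling (0.40 ± 0.13) and without Vehicle 1, Vehicle 2, Vehicle 3, LPS 1 or LPS 2, with values of 0.47 to 0.52. Slx4, the scaffold that holds several such nucleases, was not called (0.13 ± 0.13).

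Genes that sense and trim broken ends were mostly without a call, and 1 of 5 was called lower. Exo1 (ENSMUSG00000039748), an exonuclease of long-range trimming, stood at 36.8, 51.9 and 46.7 CPM in Vehicle and at 20.9, 16.6 and 19.1 CPM in LPS. The groups did not overlap, and Exo1 fell by 1.25 ± 0.16 on the log2 scale. MRE11, RAD50 and NBN form the complex that first binds an end. Rad50 (ENSMUSG00000020380) stood at 71.2, 83.1 and 82.3 CPM in Vehicle and at 58.0, 69.6 and 89.9 CPM in LPS, so that LPS 3 was the highest of the 6 libraries and LPS 1 the lowest. Its log2 fold change was -0.12 ± 0.16, that of Mre11a -0.09 ± 0.10 and that of Nbn 0.03 ± 0.15, and none of the 3 was called. Rbbp8, which starts the trimming, had -0.54 ± 0.20 and was not called. It was called lower with DESeq2 (-0.56 ± 0.22), with the replicate block (-0.55 ± 0.14), without Vehicle 1 (-0.70 ± 0.19) and without LPS 3 (-0.74 ± 0.18).

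Of the 6 checkpoint genes 3 were called lower, and the median log2 fold change of the 6 was -0.89. The 3 belong to the ATR branch, but so does Atr, which was not called. Only Atm and Chek2 belong to the ATM branch, and a difference between the branches was not tested. Topbp1 (ENSMUSG00000032555), which switches ATR on, stood at 214.6, 230.2 and 196.8 CPM in Vehicle and at 116.7, 95.7 and 119.7 CPM in LPS. The LPS values were all under the lowest Vehicle value, and the log2 fold change was -0.95 ± 0.11. Clspn (ENSMUSG00000042489), the adaptor between ATR and CHK1, stood at 94.5, 104.0 and 91.1 CPM in Vehicle and at 46.5, 34.3 and 43.9 CPM in LPS. Clspn fell by 1.22 ± 0.13 on the log2 scale, without overlap. Chek1 (ENSMUSG00000032113), the kinase that ATR activates, stood at 32.5, 40.2 and 45.2 CPM in Vehicle and at 16.2, 14.9 and 18.7 CPM in LPS. Its groups did not overlap and the log2 fold change was -1.24 ± 0.16. Chek2 (ENSMUSG00000029521), the kinase that ATM activates, stood at 22.7, 19.9 and 25.01 CPM in Vehicle and at 18.2, 20.1 and 19.7 CPM in LPS. The groups overlapped, and Chek2 was not called (-0.22 ± 0.13).

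The apical kinases were not called, and both varied widely among the LPS libraries. Atm (ENSMUSG00000034218), which responds to broken ends, stood at 53.9, 66.2 and 59.6 CPM in Vehicle and at 18.9, 33.0 and 49.9 CPM in LPS. Every LPS value was below every Vehicle value, with LPS 3 close to Vehicle 1, and Atm was not called (-0.82 ± 0.32). It was called lower without LPS 3 (-1.21 ± 0.23) and with DESeq2 (-0.83 ± 0.30), and had -0.54 ± 0.19 without LPS 1. Atr (ENSMUSG00000032409), which responds to stalled forks, stood at 34.7, 37.9 and 39.6 CPM in Vehicle and at 13.6, 31.1 and 30.9 CPM in LPS. Only LPS 1 was far below, and Atr was not called (-0.57 ± 0.29), with -0.28 ± 0.13 when LPS 1 was left out.

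**Figure D2:**
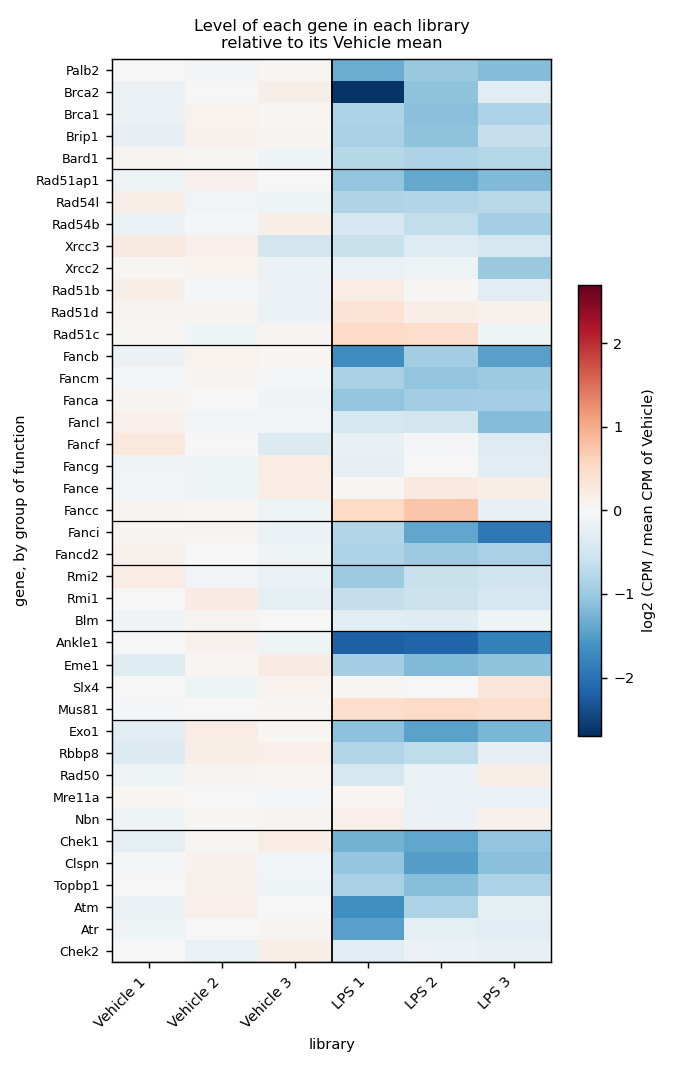
Colour gives log2 of the level (CPM) of each gene (y axis, grouped by role) in each library (x axis) over its mean in Vehicle, with blue for lower and red for higher. Brca2, Atm and Atr are darkest in LPS 1, Fanci is darkest in LPS 3, and Ankle1 is dark in all 3 LPS libraries.

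Brca2, Atm and Atr have the longest transcripts of the 41 genes, and they are the 3 members whose longest annotated transcript exceeds 8000 bases, a limit set after the values were seen. On log2 CPM, LPS 1 minus LPS 3 was -2.36 for Brca2, -1.40 for Atm and -1.18 for Atr. Over all 751 tested genes above that length the median of this difference was -0.27, against 0.00 for the shorter genes. Relative to the Vehicle mean, the median log2 ratio of those 751 genes was -0.18 in LPS 1, -0.07 in LPS 2 and 0.13 in LPS 3. Of the 751 genes 7.99% had a difference at or below that of Brca2, 14.9% at or below that of Atm and 17.3% at or below that of Atr. Brca2, Atm and Atr had the lowest values of this difference among the 41 genes, and the part of length in their values was not tested. Fancm and Exo1, the next longest, differed by 0.10 and 0.13, and Fanci, of middle length, by 1.13 in the other direction.

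**Figure D3:**
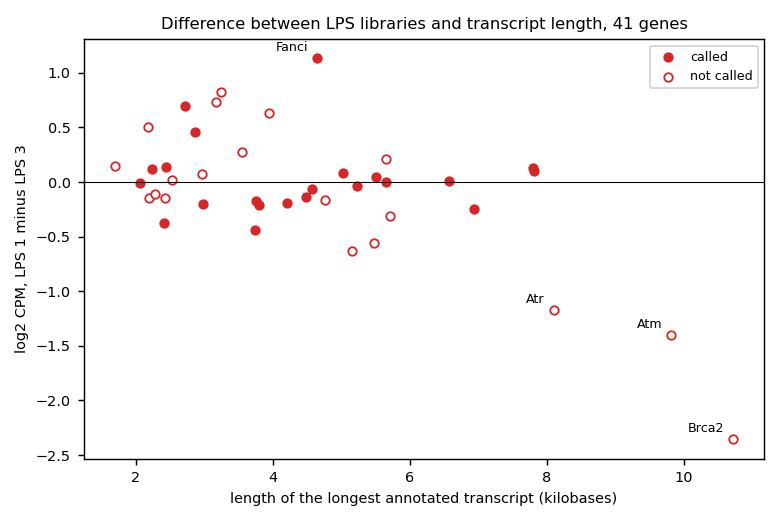
Difference in log2 CPM between LPS 1 and LPS 3 (y axis) against the length of the longest annotated transcript in kilobases (x axis) for the 41 genes. Filled points are called in LPS against Vehicle and open points are not. The 3 longest genes lie at -1.18 to -2.36, and Fanci lies highest at 1.13.

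Levels were compared between genes only as CPM per kilobase of the longest transcript. In Vehicle they ran from 1.68 (Rad51c) to 40.9 (Topbp1) CPM per kilobase, with a median of 5.95. The genes called lower had a median of 6.31 and the genes without a call one of 5.95. Below Topbp1 came Clspn at 19.2, Rad51ap1 at 19.0, Rad50 at 15.3 and Fanca at 13.1 CPM per kilobase. In LPS Topbp1 remained the highest at 21.2, and Rad50 followed at 14.1, above Mre11a at 10.2 and Blm at 9.37. Lowest in LPS were Rmi2 at 1.25, Brca2 at 1.28, Fancm at 1.41 and Ankle1 at 1.52 CPM per kilobase.

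Many proteins of these pathways work in pairs and complexes. Within each library 14 pairs of genes, not all of them for subunits of the same complex, were set against each other as ratios of counts per kilobase. The pairs were picked after the values were seen, and the ratios are described without a test. Eme1 over Mus81 went from 1.28, 1.61 and 1.72 in Vehicle to 0.580, 0.466 and 0.523 in LPS. Per kilobase of the longest transcript, Eme1 thus lay above Mus81 in every Vehicle library and below it in every LPS library. That order depends on the lengths used, and reads of the genes that share exon bases with Eme1 may be counted in it. Chek1 over Chek2 was 0.858, 1.21 and 1.08 in Vehicle and 0.534, 0.443 and 0.570 in LPS, again without overlap. Rad51ap1 over Rad51d had a mean of 3.13 ± 0.44 in Vehicle and 1.15 ± 0.10 in LPS (SD, n = 3). Rad54l over Rad51d had means of 1.89 ± 0.17 and 0.94 ± 0.11 (SD, n = 3). For Fanca over Fancg they were 3.83 ± 0.62 and 2.199 ± 0.24, and for Exo1 over Mre11a 0.54 ± 0.10 and 0.24 ± 0.02 (SD, n = 3). These 6 ratios did not overlap between the groups, and the other 8 did. Each of the 6 sets a gene called lower over a gene that was not called or rose, so nothing is read from their separation. Brca1 over Bard1, the subunits of the ligase, was 1.78, 2.16 and 2.34 in Vehicle and 1.98, 1.71 and 1.96 in LPS. Clspn over Chek1 had means of 1.89 ± 0.34 and 1.89 ± 0.24 (SD, n = 3), with the difference between the groups within these SDs.

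**Figure D4:**
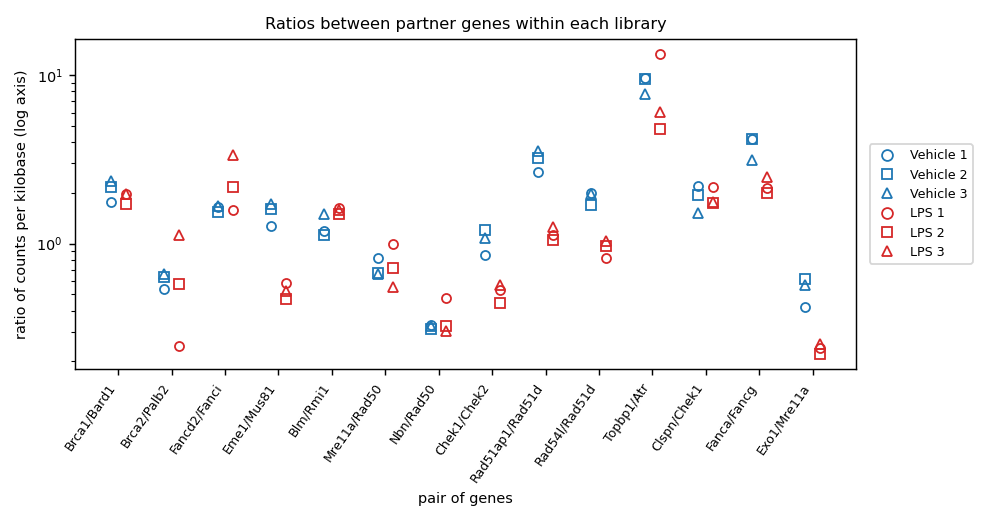
Ratio of counts per kilobase between paired genes (y axis, log axis) in each library, for 14 pairs (x axis). Blue symbols are Vehicle libraries and red symbols LPS libraries, with the symbol giving the replicate. Eme1/Mus81 and Chek1/Chek2 lie lower in all LPS libraries, while Brca2/Palb2 spreads from 0.245 to 1.12 within LPS.

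Other genes of the pathways were read from lists drawn up by function, with earlier results of these data known. Beside the counts below, 10.9% of all tested genes were called lower and 12.7% higher. Whether a list differs from those shares was not tested. Of 22 tested recombination genes 9 were called lower and 2 higher, with a median log2 fold change of -0.37. Recql (-1.32 ± 0.14), a helicase, and Mms22l (-1.02 ± 0.14), which acts at stalled forks, fell the most there. Sfr1, a cofactor of strand exchange, rose (0.53 ± 0.11), and so did the helicase gene Recql4 (0.49 ± 0.11), not called when Vehicle 2, Vehicle 3 or LPS 2 was left out. Of 15 other genes of the Fanconi pathway 4 were called lower and 1 higher (median -0.22). Cenps, a histone-fold partner of FANCM, fell by 1.58 ± 0.23 on the log2 scale and Gen1, a resolvase, by 1.03 ± 0.12. Faap20, a subunit of the core complex, rose by 0.69 ± 0.13. Of 24 genes of the checkpoint and of chromatin at breaks 10 were called lower and 1 higher (median -0.35). Wee1, the kinase that restrains entry into mitosis, fell by 1.38 ± 0.14 and H2ax, the histone marked at breaks, by 1.29 ± 0.11, whereas Babam2, a subunit of a BRCA1 complex, rose by 0.63 ± 0.11.

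End joining without a template, the other main route of break repair, had 0 of 10 genes called lower by edgeR and 3 called higher (median 0.03). Over all tested genes 10.9% were called lower and 12.7% higher. With 10 genes, 0 called lower is near that share, and nothing is read from it. At an unadjusted p under 0.05 edgeR and limma voom each counted 0 lower, and DESeq2 counted 1, Prkdc (Wald test p 0.041). After adjustment DESeq2 and limma voom each called 0 lower. Prkdc, a kinase of this route with a long transcript, stood at 41.2, 51.6 and 44.5 CPM in Vehicle and at 20.6, 31.5 and 43.6 CPM in LPS. It was not called (-0.52 ± 0.25), but it was called lower without LPS 3 (-0.81 ± 0.19), which made the count 1 of 10. Polm, a polymerase that fills the joined ends, rose by 1.51 ± 0.13 on the log2 scale. Poll, a related polymerase, rose by 0.50 ± 0.13, and its call was lost with total counts only and without Vehicle 1, Vehicle 2, Vehicle 3 or LPS 2. Xrcc6 rose by 0.37 ± 0.08, a call lost without Vehicle 2, Vehicle 3 or LPS 1. Whether the lists differ from the 41 genes was not tested. Without LPS 1 the genes called lower and higher numbered 6 and 2 of the recombination list, 4 and 1 of the Fanconi list, 9 and 1 of the checkpoint and chromatin list, and 0 and 2 of the end joining list. Without LPS 3 they numbered 9 and 3, 4 and 1, 12 and 1, and 1 and 3, in the same order. Cell cycle genes moved in the same comparison: 35 of 40 S phase genes and 22 of 25 genes of G2 and mitosis were called lower and 0 higher, with medians of -0.75 and -1.06. Without LPS 1 the calls were 31 and 21 lower, and without LPS 3 they were 35 and 22, with 0 higher each time. E2f8 fell by 1.35 ± 0.15, Foxm1 by 1.97 ± 0.28 and Kif11 by 1.36 ± 0.21. Ccne2 fell by 1.31 ± 0.30, a call lost without Vehicle 2, Vehicle 3 or LPS 2. The part of the cell cycle in the values of the 41 genes was not tested. Of 14 tested p53 target genes 8 were called higher and 2 lower (median 0.69), among them Gadd45a (2.18 ± 0.15) and Plk2 (2.04 ± 0.15), which rose, and Sesn1 (-0.64 ± 0.12), which fell. Without LPS 1 these were 7 higher and 1 lower, and without LPS 3 they were 8 and 2. Aen also fell (-0.44 ± 0.12), a call kept only where all 6 libraries or all but LPS 3 were used.

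**Figure D5:**
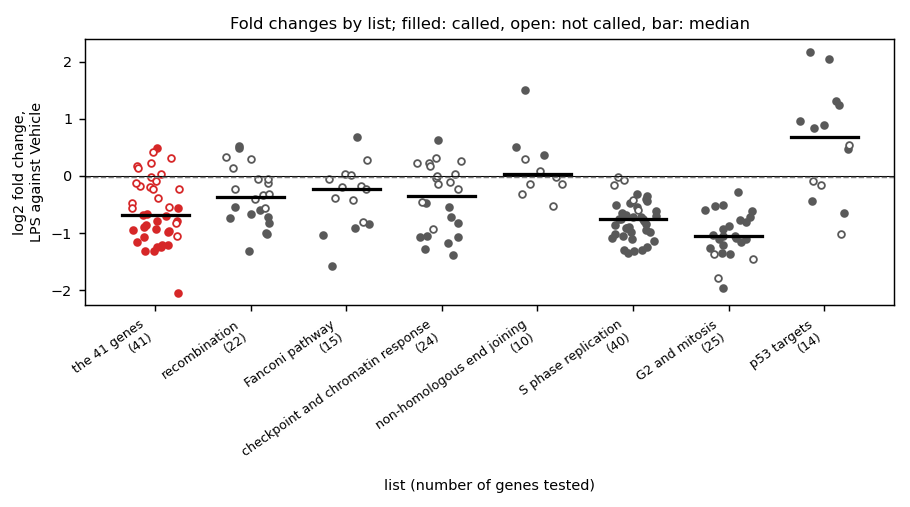
Log2 fold change of LPS against Vehicle (y axis) for each tested gene of the 41 genes (red) and of 7 other lists (grey), with the number of tested genes under each list (x axis). Filled points are called, open points are not, and bars are medians. The S phase and mitosis lists lie wholly below 0, and end joining has its median at 0.03.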

How the data were processed

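Per the labels' protocols, poly(A)-enriched RNA was made into libraries with a NEBNext Ultra kit, which is not stated to mark strand, and sequenced on an Illumina NovaSeq. The submitters' processing notes name Bowtie2 2.2.8, HISAT2, StringTie 1.3.1 and DESeq2, with no role. No build or annotation was given in the sources used here. The deposited values are the authors' estimated counts per gene (expected counts), all whole numbers. The spacing of their low values (values 4 to 30) was estimated by a procedure settled after other ranges had been tried, and it depends on the range. All columns were matched to samples by name (0 left unmapped).

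Genes were tested with edgeR 4.0.16 (R 4.3.3): filterByExpr (minimum count 10, total 15), TMM scaling and the robust quasi-likelihood F-test of version 4, two-sided. The first run used the form from before version 4. The version 4 form was taken after that form, the same without robust estimates and a form with a common dispersion had been run. The reason was that an earlier analysis of these data used the version 4 form. The standard error is the log2 fold change over the square root of F. Log2 CPM used a prior count of 2. Symbols matched 55141 of 55401 identifiers, and lengths are of the longest GENCODE transcript. The procedure was tested on simulated data.

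The 41 genes, the other lists and the comparisons were chosen with earlier results of these data known. In each group of roles, values per library are given for up to 3 called genes with the largest change, the gene with the highest level per kilobase, and Brca1, Brca2, Atm, Atr, Chek1, Chek2, Fancd2 and Ankle1. From each other list, up to 2 called genes each way are named, and for end joining Xrcc6 as well. An item of the recombination list is not reported here and was taken out of that list's counts. Alternatives were 3 other scalings, 2 other filters, DESeq2 1.42.0, limma voom (limma 3.58.1), division by the spacing, a replicate block and each library left out. Added after seeing the data were edgeR's test from before version 4, the same without robust estimates, and edgeR with a common dispersion. Python 3.11.15 with matplotlib 3.10.9 made the figures.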

Additional observations from a re-analysis of the deposited data

How the results depend on the processing

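Of the 21 genes called lower, 17 kept their call in all 18 alternatives (all but Rad54b, Fancl, Rmi1 and Rmi2). The number called lower was 20 with edgeR's test from before version 4, with or without robust estimates, 21 with a common dispersion, 23 with DESeq2, and 17 to 24 with a library left out. The number called higher was 0 with total counts only and 0 to 2 with a library left out. The forms of edgeR called 3550, 3486 and 3819 of all tested genes, against 3864. The median log2 fold change of the 41 genes lay between -0.77 (total counts only, which moved the median of all tested genes to -0.10) and -0.59 (without LPS 1). Directions that turned belong to 3 genes near 0 that were never called. With a library left out, Rad51b ran from -0.15 to 0.097, with 0.076 without Vehicle 1. Rad50 ran from -0.31 to 0.0075, and Nbn from -0.026 to 0.12, with -0.022 without Vehicle 1 and -0.0093 without LPS 3. Nbn was -0.053 with total counts only. The cause was not tested. With 1 library left out a group holds 2, so fewer samples carry each call. Libraries with the same replicate number correlated weakly in their deviations from the group mean (0.076, 0.046 and 0.059), although each correlated best with its own number, so they were not treated as paired. The replicate block gave 21 lower and 1 higher, with Rmi2 lost and Rbbp8 gained. Depth sets no limit on detection for the 41 genes, but an estimated count is not a read number, so no counting interval is given.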
